A study of Mus musculus with 6 samples.

Results

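Myoglobin (Mb) and Ldhb are the 2 genes of oxidative metabolism, oxygen supply and lactate handling on a small spotted array of muscle genes. They were chosen by the gene symbol of the array's platform annotation, each with 6 spots, so 12 of the 132 probes and 2 of the 20 named genes. Stimulated and control fibres came from the flexor digitorum brevis (FDB), a small foot muscle made mostly of fast fibres, of CD-1 mice aged 4 to 5 weeks. In the stimulated group, single fibres were held in culture with 10% serum until day 3 and received 3 days of electrical pulses in a pattern typical of nerves to slow fibres. In the control group, fibres of the same culture day received no pulses. Both groups were thus dissociated, cultured fibres without a nerve, and each extract pooled over 100 fibres, whose RNA was amplified before labelling. Each experiment put stimulated and control RNA on the same array in opposite dyes, once in each dye orientation, and there were 3 independent experiments on 6 arrays (n = 3). The labels name no difference in strain, genotype or drug between the groups.

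Myoglobin is the haem protein that stores oxygen in muscle cells and carries it towards mitochondria. It is abundant in slow and in fast oxidative fibres and scarce in fast glycolytic ones. Ldhb encodes the heart-type (H) subunit of lactate dehydrogenase, the enzyme that interconverts lactate and pyruvate, and tetramers rich in this subunit are typical of heart and oxidative fibres, whereas the muscle-type (M) subunit encoded by Ldha prevails in glycolytic fibres. In textbook accounts, long spells of low-frequency nerve activity raise fibre calcium, activate calcineurin, nuclear factor of activated T cells (NFAT) and myocyte enhancer factor 2 (MEF2), and move fast fibres towards an oxidative, slow make-up.

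The stretches of DNA just before the start of each gene are shown because both genes rose as the titles read and because these are the stretches where such factors are usually sought. They are the 250 bases before a RefSeq start, from the mouse build GRCm38.p6, on the strand of the gene. The Mb window lies at chr15:77022788-77023037 and the Ldhb window at chr6:142507958-142508207, both on the minus strand. Capitals mark matches, on either strand, to the E-box CANNTG bound by myogenic factors, to the NFAT core GGAAA, to the CCAC box CCACCCC known from myoglobin promoters, and to the MEF2 consensus.
Mb: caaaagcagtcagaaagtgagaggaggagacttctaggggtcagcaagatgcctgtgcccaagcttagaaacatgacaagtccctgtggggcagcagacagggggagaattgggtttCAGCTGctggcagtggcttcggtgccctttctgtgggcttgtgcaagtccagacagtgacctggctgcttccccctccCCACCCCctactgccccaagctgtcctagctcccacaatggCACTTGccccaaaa
Ldhb: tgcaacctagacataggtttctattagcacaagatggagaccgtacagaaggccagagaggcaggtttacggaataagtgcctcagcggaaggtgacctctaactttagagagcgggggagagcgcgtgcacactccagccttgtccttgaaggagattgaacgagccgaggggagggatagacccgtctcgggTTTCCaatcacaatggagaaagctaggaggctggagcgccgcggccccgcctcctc

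The printed Mb window held 2 E-boxes and 1 CCAC box, which do not overlap, and no match to the NFAT core or to MEF2. The Ldhb window held 1 NFAT core and no match to the other motifs. Over the 32851 windows of the same length in the table, 66.2% held an E-box, 55.6% an NFAT core, 13.5% a CCAC box and 2.92% a MEF2 match. The windows differed in CpG dinucleotides, with 1 in the Mb window and 14 in the Ldhb window, against a median of 6 over all windows. Their GC content was 57.2% and 56.4%. RefSeq lists 3 starts for Mb. The window of a start a little further downstream, at chr15:77022728-77022977, overlaps the printed one and held 3 E-boxes and the same CCAC box, and the window of a distant start, at chr15:77050669-77050918, held 2 E-boxes and none of the other motifs. A letter match is a description and no factor was measured on this array.

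The value table of the series gave a ratio for each spot, which was turned to stimulated over control by the dyes in the sample titles and taken as log2. On that reading both genes rose. Mb was 1.39-fold higher in stimulated fibres, with a mean log2 ratio of 0.47 ± 0.13 (SD over experiments, n = 3), and Ldhb was 1.40-fold higher at 0.49 ± 0.30. In limma, fitted on the 15 probe sets with at least 3 spots on every array, the adjusted p was 0.0237 for Mb and 0.0257 for Ldhb. The 95% intervals were 0.17 to 0.78 for Mb and 0.14 to 0.83 for Ldhb. Of the 15 sets 7 passed (46.7%), and the 2 members were the only sets that passed as higher in stimulated fibres (13.3%), while 5 were lower. With 3 experiments, an exact sign-flip test of either gene alone could not give a two-sided p below 0.25, and it gave that value for both. The ratio compares RNA in pooled fibres, in which more fibres of a type and more RNA per fibre cannot be told apart.

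The direction of experiment 1 is not settled between the sources, so both readings are given. The titles and the value table put it in the same direction as the other experiments. In the table, arrays of the same dye orientation correlated at 0.30 to 0.56 over 76 to 94 spots. The scanner intensities, taken as labelled, agreed poorly between all experiments. Over 144 spots the r of experiment 1 to experiments 2 and 3 was -0.33 and -0.16 where the stimulated extract was in Cy5. Where it was in Cy3, r was -0.01 and 0.06. Experiments 2 and 3 hardly ran together either, at r of 0.06 in Cy5 and 0.20 in Cy3. With experiment 1 turned in the table, Mb was at 0.19 and Ldhb at 0.27, with a limma adjusted p of 0.892 for both and 0 of 15 sets past the threshold, and 0 at an unadjusted p of 0.05. Without experiment 1, Mb was at 0.50 and Ldhb at 0.57, with a limma adjusted p of 0.125 for both and 0 sets past the threshold, 6 of them at an unadjusted p under 0.05. Directions below follow the titles unless another reading is named.

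Myoglobin, the oxygen store, was higher in stimulated fibres on every array. In experiment 1 its log2 ratio was 0.49 with stimulated RNA in Cy3 and 0.35 with stimulated RNA in Cy5. In experiment 2 the values were 0.32 in Cy3 and 0.45 in Cy5, and in experiment 3 they were 0.55 and 0.68. All 6 arrays lay above 0 and ran from 1.25-fold to 1.60-fold. The spots on an array varied with an SD of 0.075 to 0.154, and the SD pooled over arrays, 0.117, was the median of the 15 sets. All 36 spot values were positive, and the lowest, 0.059 on the array of experiment 2 with stimulated RNA in Cy3, was the only one under 0.2. Within a dye swap the arrays differed by 0.13 to 0.14 in every experiment, with the Cy3 array higher in experiment 1 and the Cy5 array higher in experiments 2 and 3. The means of the experiments were 0.42, 0.38 and 0.62, or 1.34-fold, 1.30-fold and 1.53-fold, so experiment 3 stood highest.

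Ldhb, the lactate dehydrogenase subunit of oxidative fibres, varied more from array to array. In experiment 1 its log2 ratio was 0.39 with stimulated RNA in Cy3, from 5 spots, and 0.24 with stimulated RNA in Cy5, from 3 spots. In experiment 2 the values were 0.66 in Cy3 and 1.02 in Cy5, and in experiment 3 they were 0.52 and 0.089. The arrays again all lay above 0, but they ran from 1.06-fold to 2.03-fold, a range that holds every Mb array. All 32 spot values were positive, and the 4 missing ones were all in experiment 1. The SD over the spots of an array was 0.019 to 0.142 on 5 of the arrays and 0.349 on the array of experiment 2 with stimulated RNA in Cy5. Pooled over arrays it was 0.174, or rank 13 of 15 from the lowest, and that rests on experiment 2. On 4 of 6 arrays the Ldhb spots varied less than the Mb spots, and without experiment 2 the pooled SD was 0.085 for Ldhb and 0.109 for Mb. On the array with the large SD, the first 3 spots averaged 1.34 and the last 3 averaged 0.70, with no overlap, whereas for Mb the first 3 and last 3 spots averaged 0.43 and 0.46 there. The means of the experiments were 0.32, 0.84 and 0.30, or 1.25-fold, 1.79-fold and 1.24-fold.

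**Figure D1:**
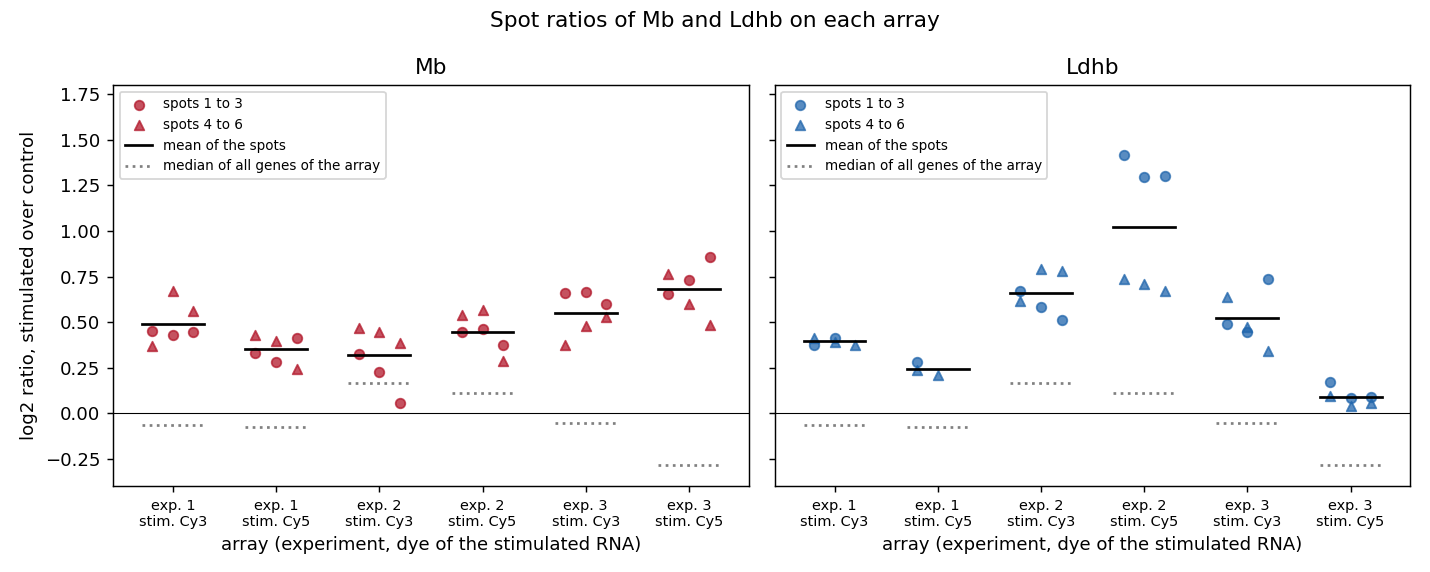
Log2 ratio of stimulated over control for each spot of Mb (left panel) and Ldhb (right panel) on the 6 arrays; circles are the first 3 spots and triangles the last 3, black lines the mean of the spots and dotted lines the median of all genes of that array. Every spot lies above 0, and the Ldhb spots of experiment 2 with stimulated RNA in Cy5 split into values near 1.34 and 0.70.

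The 2 arrays of a dye swap hybridised the same extracts, so their difference measures the array and the dye. For Ldhb it was 0.15, 0.36 and 0.43 in experiments 1 to 3, a mean of 0.32. For Mb the mean was 0.13. Over the 15 sets this mean ran from 0.090 to 0.315 with a median of 0.145, Ldhb was the highest and Mb ranked 4 from the lowest. The SD over the 3 experiments ran from 0.055 to 0.65 with a median of 0.25 and ranked Mb 5 and Ldhb 10 of the 15, counted from the lowest. As the titles read, the sign of the swap difference changed between experiments for both genes, so no dye was always higher. In experiment 2, however, the table columns followed the scanner file of the other array of the swap. With those columns exchanged, Ldhb would be higher with stimulated RNA in Cy3 in every experiment. For Mb the sign would still change. A constant dye effect on Ldhb was not tested.

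The Ldhb mean was highest in experiment 2 and the Mb mean in experiment 3. Without experiment 2, Ldhb was at 0.31 (limma adjusted p = 0.151) and Mb at 0.52 (adjusted p = 0.0986), with 0 of 15 sets past the threshold and 5 at an unadjusted p under 0.05. Without experiment 3, Ldhb was at 0.58 (limma adjusted p = 0.0159) and Mb at 0.40 (adjusted p = 0.0676), and 5 of 16 sets passed. That fit also gave every set the same standard error, 0.166. Its p-values therefore do not reflect the SD over experiments 1 and 2, which was 0.37 for Ldhb and 0.03 for Mb. The scanner files of experiments 1 and 2 carry the same date in their headers and those of experiment 3 another. The values without experiment 3 are therefore also the values within the first date, and the second date holds 1 experiment, with Mb at 0.62 and Ldhb at 0.30. With the date as a block, Mb was at 0.51 and Ldhb at 0.44. That fit has only experiment 3 in the second date and so cannot measure the spread within it.

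Set against each other within an experiment, Mb minus Ldhb was 0.10, -0.46 and 0.31, a mean of -0.02 ± 0.40 (SD, n = 3, exact sign-flip p = 1, two-sided). Mb was the higher in experiments 1 and 3 and Ldhb in experiment 2. With this spread over 3 experiments, a p of 1 does not show that the ratios were equal.

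Each array was also read against its own median gene, since the scaling of the table is unknown. The median log2 ratio of the 16 or 17 probe sets with enough spots was -0.06 and -0.07 on the arrays of experiment 1, 0.17 and 0.11 in experiment 2, and -0.06 and -0.28 in experiment 3, in the order stimulated in Cy3, then in Cy5. Relative to that median, Mb was at 0.55 and 0.43 in experiment 1, at 0.15 and 0.34 in experiment 2, and at 0.61 and 0.97 in experiment 3. Ldhb was at 0.46 and 0.32, at 0.49 and 0.91, and at 0.58 and 0.37. Both genes thus stood above the median on 6 of 6 arrays. Counted from the highest set, Mb ranked 2 or 3 on every array, and Ldhb ranked 1 on both arrays of experiment 2 but 7 on the array of experiment 3 with stimulated RNA in Cy5.

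Centring on the median changed which gene was the steadier. The centred mean over experiments was 0.51 ± 0.27 for Mb and 0.52 ± 0.16 for Ldhb (SD, n = 3), with a limma adjusted p of 0.0166 and 0.0165. In this fit limma gave every set the same standard error, 0.169, so these p-values do not reflect the SD of each gene. Centred values by experiment were 0.49, 0.24 and 0.79 for Mb and 0.39, 0.70 and 0.47 for Ldhb. The SD over experiments then ranked Ldhb 2 and Mb 10 of the 15 sets, counted from the lowest. The mean dye-swap difference of Mb was 0.22 after centring, against 0.13 before, and that of Ldhb 0.25, against 0.32.

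**Figure D2:**
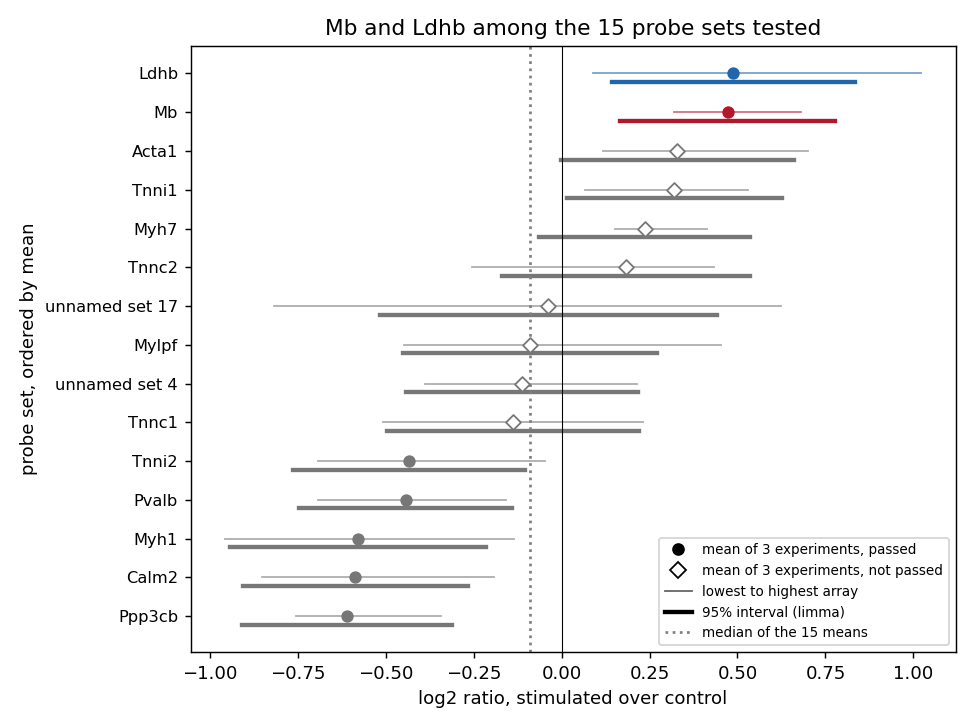
Mean log2 ratio of stimulated over control for the 15 probe sets tested, ordered by mean; thin lines join the lowest and highest array, thick lines are the limma 95% intervals, and the dotted line is the median of the means, -0.09. Ldhb and Mb are the top sets, and their array ranges overlap those of Acta1, Tnni1, Myh7, Tnnc2, Mylpf and unnamed set 17. The range of Ldhb also overlaps those of Tnnc1 and unnamed set 4.

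By their means, Ldhb and Mb were the highest of the 15 sets, which had a median of -0.09. Positive values on 6 of 6 arrays were seen for 5 sets (33.3%), namely Mb, Ldhb, Acta1, Tnni1 and Myh7. The means of the next sets, Acta1 at 0.33 ± 0.25 and Tnni1 at 0.32 ± 0.12, lay inside both members' intervals. Those intervals are against 0 and do not compare genes within an experiment. The members' order against these neighbours was not tested. Likeness was measured as the root mean square difference of the log2 ratios over the 6 arrays, among the 12 other named genes with values on all 6. The genes nearest to Mb were Tnni1, the troponin I of slow fibres, at 0.20, Myh7, the slow myosin heavy chain, at 0.27, and Acta1, the skeletal actin common to all fibre types, at 0.32. Ldhb followed at 0.37. The genes nearest to Ldhb were Mb at 0.37, Myh7 at 0.41 and Acta1 at 0.45. All 12 genes share the arrays and the RNA extracts.

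Apart from the members themselves, none of these neighbours passed. Myh7 averaged 0.24 ± 0.07 over the 3 experiments, and the limma adjusted p-values were 0.164 for Myh7, 0.0856 for Acta1 and 0.0779 for Tnni1. Of the fast partners, the fast-fibre troponin I gene Tnni2 lay at a root mean square difference of 0.96 from Mb and of 0.94 from Ldhb, and Myh1, a fast myosin heavy chain, at 1.08 and 1.17. The troponin C genes, named here after their values were seen, lay the other way round. Tnnc2, the fast form, was at 0.38 from Mb and 0.45 from Ldhb, with a log2 ratio of 0.18. Tnnc1, the form of slow and cardiac muscle, was at 0.73 from Mb and 0.68 from Ldhb, with a log2 ratio of -0.14. Likeness to Mb and Ldhb thus did not divide slow from fast genes. Of the 10 slow contractile genes listed, 3 were on the array and 0 passed, with a median log2 ratio of 0.24. Of the 12 fast contractile genes listed, 5 were tested, 3 were lower and 0 higher, with a median of -0.43. Over all 15 sets 5 were lower (33.3%) and the median was -0.09, and with so few genes these counts say nothing particular about either list. With experiment 1 turned these medians were 0.06 and -0.02, against -0.07.

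The metabolic side of the array was thin. Of the 20 genes listed for oxidative metabolism and oxygen supply, which include mitochondrial enzymes and fatty acid carriers, Mb was the only one on the array. Of the 16 listed for lactate and glycolysis, Ldhb was the only one, so its partner Ldha, the glycolytic enzymes and the lactate transporters were not measured. Of the 11 skeletal fibre markers, 10 were on the array and 9 tested, of which 1 was higher (Mb) and 3 were lower. Over all 15 sets 2 were higher (13.3%) and 5 lower (33.3%), so these counts are not particular to the markers. Markers of other cells in the dishes could scarcely be read. Of the lists for fibroblasts, satellite cells, endothelium, macrophages, red cells, nerve and heart, 3 genes were on the array, and none had enough values to be tested. Mgp, a matrix protein gene of fibroblasts and smooth muscle, had values in experiment 3 alone, at 0.82 with stimulated RNA in Cy3 and 1.01 with stimulated RNA in Cy5. The part of other cells in the Mb and Ldhb ratios was not tested.

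The scanner files name no genes, and spots were matched to the table through their ratios in experiments 2 and 3. Both members were placed. The spots placed as Mb left a mean residual of 0.05 log2, and the next best set of spots was 3.18 times worse. For Ldhb the residual was 0.10 and the next best 3.73 times worse. Ldhb was not placed from experiment 3 alone, where its next best set was only 1.16 times worse, while Mb was placed from either experiment alone. In experiment 2 the table followed the scanner file of the other array of the swap, over the 6 spots at r of 0.98 and 0.95 for Mb and 0.94 and 0.98 for Ldhb. In experiment 3 it followed its own arrays for Mb, at 0.97 and 0.78, and for Ldhb where stimulated RNA was in Cy3, at 0.97. The Ldhb column with stimulated RNA in Cy5 did not follow its own array (r of -0.21, and 0.44 with the other array). These agreements are partly fixed by the match. Experiment 1 was not used for it, and there the Mb columns ran opposite to the other array of the swap, at r of -0.91 and -0.89, and showed little relation to their own, at 0.13 and 0.09. For Ldhb the column with stimulated RNA in Cy3 gave 0.14 with its own array and -0.08 with the other. The Cy5 column had too few spots. Over the means of the matched sets, r was -0.91 with the own array and 0.10 with the other for the Cy3 column. For the Cy5 column it was -0.13 and -0.997. Over spots within sets, r was 0.14 and -0.25 for the Cy3 column, and 0.06 and -0.85 for the Cy5 column.

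The spots of Mb were bright. Over arrays and channels their signal had medians of 7.4 to 35.3 times the background beside the spot, and 1 spot on 1 array was saturated. The medians for Ldhb were 1.2 to 5.1 times background. In experiment 1 the medians were at most 3.1 times and the brightest single spot 4.4 times background, and the quantification software had marked 6 of the 6 spots on one array and 5 of 6 on the other. Values of Ldhb in experiment 1 therefore rest on dim spots, nearly all of them marked.

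Background-corrected and loess-normalised scanner ratios of Mb, as labelled, were -0.32 and -0.33 in experiment 1, 0.21 and 0.18 in experiment 2, and 0.23 and 0.23 in experiment 3. Those of Ldhb were -0.15 and 0.002, then 0.40 and 0.49, then 0.22 and 0.18. In experiments 2 and 3 these values were all positive for both genes, and the Mb values were smaller than those of the table. The spots were chosen by likeness to the table in those experiments, so their sign there is partly fixed by the match. In experiment 1 Mb was below 0 on both arrays. Without background correction, in experiment 3, Mb was at -0.011 with stimulated RNA in Cy3 and 1.24 in Cy5, and Ldhb at 0.44 and -0.002, so that version was not positive on every array. The means after background correction and loess, over experiments, were 0.03 for Mb and 0.19 for Ldhb as labelled, 0.25 and 0.24 with experiment 1 turned, and 0.21 and 0.32 without it. With limma 0 of 24 spot sets passed in any of these readings, and 0, 3 and 0 of them had an unadjusted p under 0.05.

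**Figure D3:**
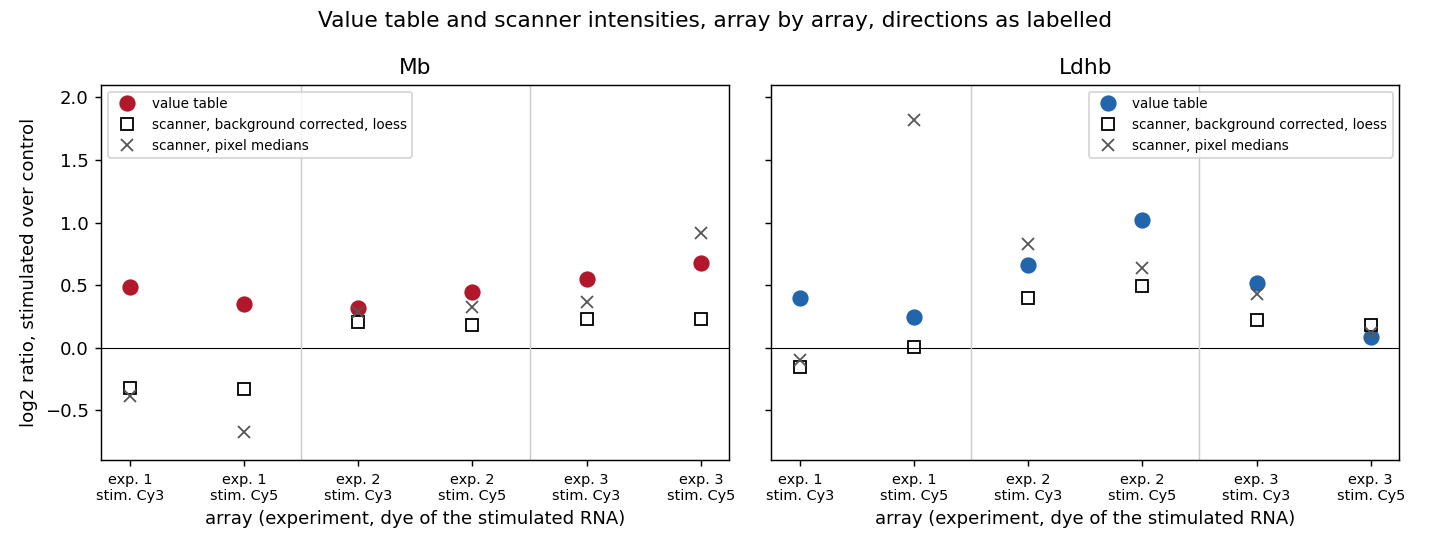
Log2 ratio of stimulated over control on each array for Mb (left panel) and Ldhb (right panel), from the value table (filled circles), from scanner intensities after background correction and loess (open squares) and from scanner pixel medians (crosses). The Mb values of experiment 1 lie above 0 in the table and below 0 in both scanner versions, and in experiments 2 and 3 all plotted values lie above 0.

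Pixel medians less the background median, centred on each array, gave larger scanner ratios on most arrays. Mb was then at 0.28 and 0.33 in experiment 2 and at 0.37 and 0.91 in experiment 3, and Ldhb at 0.83 and 0.64 and at 0.43 and 0.12. In experiment 1 Mb was at -0.38 and -0.68, and Ldhb at -0.09 and 1.82, the 1.82 from dim spots. Without experiment 1 the means were 0.47 for Mb and 0.50 for Ldhb (limma adjusted p = 0.404 for both). The table without that experiment gave 0.50 and 0.57. The spots were matched to the table through these same pixel medians in experiments 2 and 3. Closeness to the table there is therefore partly fixed by the match.

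**Figure D4:**
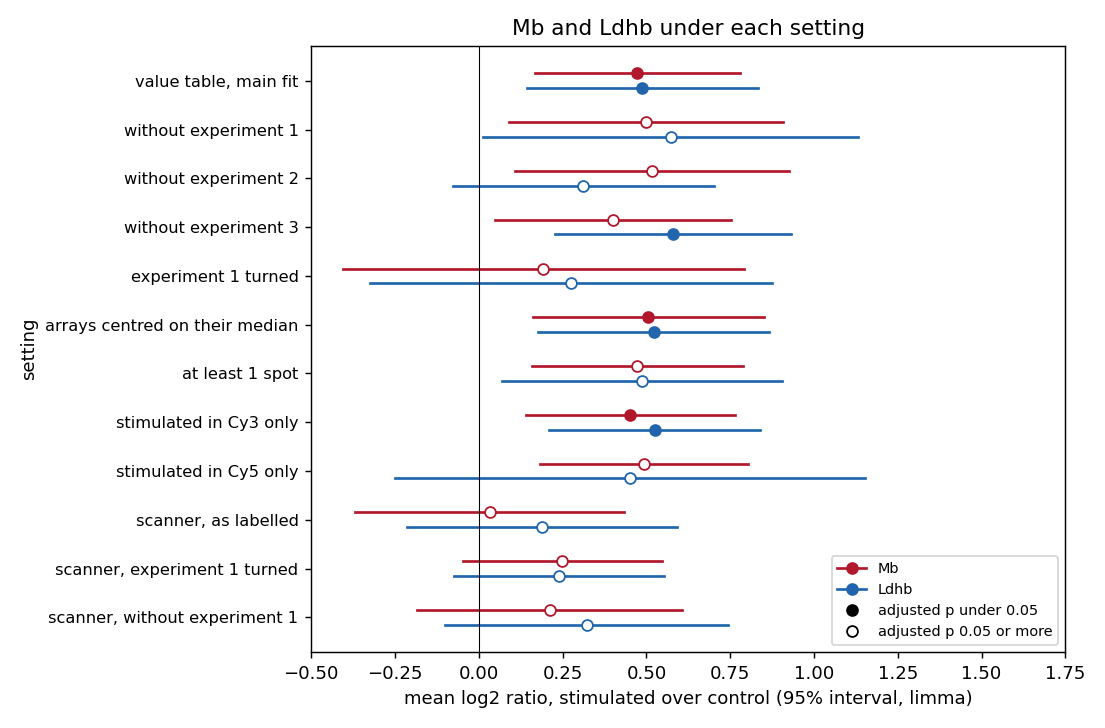
Mean log2 ratio of stimulated over control for Mb and Ldhb under 12 settings, with limma 95% intervals; filled points have an adjusted p under 0.05. Every point lies above 0, from 0.03 for Mb in the scanner files as labelled to 0.58 for Ldhb in the table without experiment 3, and no scanner setting is filled.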

How the data were processed

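Members and gene lists were chosen with earlier results of these data known. Per the labels' protocols, total RNA was amplified and coupled to Cy3 or Cy5, and a gene was represented by its mean of 6 spots. The authors' deposited value table gives 1 linear ratio for each of 132 spotted probes. How it was scaled, centred or corrected for background is not given in the sources used here. Its column medians were 0.974, 1.04, 1.07, 0.938, 0.978 and 1.26. Its direction was read from the sample titles. The authors' scanner files hold, per the file headers, the intensity of 144 spots and of their local background as pixel values, not background-subtracted, from software of version 5.5. Of the 20 named genes, 19 were found by gene number in a RefSeq table.

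Ratios were taken as log2, averaged over spots where at least 3 had a value, and then over both arrays of a swap. The 3 experiment means were tested against 0 with limma 3.58.1 in R 4.3.3 (lmFit and eBayes, two-sided, Benjamini-Hochberg over 15 probe sets, adjusted p under 0.05). Single genes were also tested with an exact sign-flip permutation test. The number of arrays limits the precision. In several settings limma gave all sets the same standard error, so a p-value there does not reflect the gene's own SD. Among them were centring, experiment 1 turned, leaving out experiment 3 and the random replicate block. Values of exactly 1 for CAMTA1, a filler, were left out. Scanner intensities were corrected with normexp (offset 50) and normalised by loess within each array. A set of spots was matched to a gene where the residual was at most 0.12 log2 and 2 or more times smaller than for any other set, which placed 9 sets, 7 of them named. Matching with each array's own file in experiment 2 placed 3 sets and neither member. The pairing that places the members was therefore chosen after seeing the data, as were the pixel medians. The limma step was tested on simulated data. Genes named with values were the members, the 3 genes nearest to each, Tnni2 and Myh1 as fast partners, and Mgp. Tnnc1 and Tnnc2 were added after their values were seen. Stimulated and control RNA of the same number shared an array, which pairs them, so the ratio itself is the paired value. Alternatives covered the direction of experiment 1, left-out experiments, spot minimum, averaging, centring, dye orientation, blocks, array weights, file date and the scanner files.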

Additional observations from a re-analysis of the deposited data

How the results depend on the processing

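No setting reversed Mb or Ldhb. Read by the titles, the table gave Mb between 0.40 and 0.52 over 16 settings, 9 of them past the threshold. Ldhb lay between 0.31 and 0.59 over 15 settings, 10 past it. The limma adjusted p ran from 0.00208 to 0.171 for Mb and from 0.00490 to 0.208 for Ldhb. Both lowest values came from the fit with no replicate block, which counts the arrays of a swap as separate samples. The next lowest, with the median of the spots, were 0.0138 and 0.0150. The first file date holds only experiments 1 and 2, so that setting repeats an omission, and the Ldhb pass counts under both. The counts also include the date block, which cannot measure the spread within the second date. Leaving out an experiment gave 0.40 to 0.52 for Mb, 0.31 to 0.58 for Ldhb and 0 to 5 sets past the threshold, against 7. Mb missed the threshold at every omission and Ldhb without experiment 1 or 2. With experiment 1 turned the values were 0.19 and 0.27 and 0 sets passed, and with centring added 0.18 and 0.26 and 0 sets. With centring and without experiment 1 they were 0.52 and 0.59, and 0 sets. With a minimum of 1 spot the values stayed at 0.47 and 0.49, but a 16th set entered the fit and 0 passed, 9 at an unadjusted p under 0.05 (limma adjusted p 0.0572 and 0.0640). With 5 spots Ldhb could not be tested and 4 of 10 sets passed. Stimulated RNA in Cy5 only gave 0.49 and 0.45 and 0 sets, 5 of them at an unadjusted p under 0.05 in limma. Within the first file date Mb was at 0.40.

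In the scanner files 0 sets passed under any setting, with at most 3 at an unadjusted p under 0.05 in limma. Mb and Ldhb were at 0.032 and 0.19 as labelled, 0.25 and 0.24 turned, 0.21 and 0.32 without experiment 1, and 0.15 and 0.30 without background correction. Pixel medians gave 0.14 and 0.62 as labelled, 0.49 and 0.047 turned, and 0.47 and 0.50 without experiment 1. The cause of these differences was not tested.

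Pairing and the replicate block: with both arrays kept, a dye term and experiment as a random replicate block (estimated correlation 0.706), Mb stayed at 0.47 and Ldhb at 0.49 (limma adjusted p = 0.0161 and 0.0155) and 7 sets passed. With no replicate block 10 sets passed, which counts the arrays of a swap as separate samples. The block changed no call of Mb or Ldhb. Depth is limited for Ldhb, whose spots were near background in experiment 1.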
